A study of Mus musculus with 2 samples.

Results

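The arginine and nitric oxide enzymes described here are 6 genes of the 31053 in the count tables, taken by symbol in both libraries: Slc7a2, Arg1, Arg2, Nos2, Odc1 and Ass1. Arginine enters cells through cationic amino acid transporters, among them the product of Slc7a2 (CAT-2), and is then drawn on by competing enzymes. Arginase 1, which is cytosolic, and arginase 2, which is mitochondrial, split it into ornithine and urea, while the inducible nitric oxide synthase encoded by Nos2 turns it into nitric oxide and citrulline. Odc1 encodes ornithine decarboxylase, the rate-limiting step from ornithine to the polyamines, and Ass1 encodes argininosuccinate synthase, which starts the rebuilding of arginine from citrulline. In mouse myeloid cells Arg1 is a familiar marker of alternatively activated and tumour-associated macrophages and Nos2 of macrophages exposed to interferon gamma and microbial products.

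The data are droplet single-cell RNA counts. The tissue is subcutaneous MC38 tumours, which the labels call xenografts; MC38 is a colon carcinoma line of the mouse. The UBD group is tumour tissue overexpressing UBD (ubiquitin D, a ubiquitin-like modifier also called FAT10) and gave 1 library, and the control group gave 1 library. The strain and age of the mice, the construct, and the number of animals and tumours behind each library are stated in none of the sources used here. With 1 library per group there is no replicate check and no test: every interval below is a 95% interval for counting error only, and a difference between the libraries cannot be told apart from a difference between the tumours or preparations that gave them.

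After filtering and removal of predicted doublets, 13057 UBD cells with a median of 12186 UMIs and 13823 control cells with a median of 4334 UMIs were kept. UMIs are counts of tagged transcript molecules, and levels are the UMIs of all cells of a class added up and expressed as CPM, the counts of the gene per 1e6 UMIs of the class. The 2 libraries shared 71 barcodes. Ubd itself had 184 UMIs at 1.16 CPM (0.996 to 1.34) in the UBD tumour cells and 51 UMIs at 0.387 CPM (0.288 to 0.509) in the control tumour cells. A 3' count of the mouse gene need not capture a transgene, so this low level checks the labels only in part.

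Cells were put into classes by marker UMIs per 10000 UMIs of the cell, with at least 2 UMIs of the marker (1 of each for the dendritic pair): macrophage by C1qa (at least 10), monocyte by Ly6c2 (at least 5), neutrophil by S100a8 (at least 20), mature dendritic by Ccr7 with Fscn1 (at least 2 each) and tumour by Cdkn2a (at least 3). The macrophage class held 1651 UBD and 1537 control cells, the monocyte class 256 and 2120, the neutrophil class 22 and 147, the mature dendritic class 60 and 75, and the tumour class 8218 and 5753. Cells with both C1qa and Ly6c2 formed a class of their own, with 24 UBD and 659 control cells. The UBD side of that class and of the neutrophil class is below the 30 cells required for a comparison. Of the macrophage markers that the rule did not use, Apoe was at 9898 CPM in UBD and 10404 CPM in control macrophages and C1qb at 4459 and 4658 CPM, while Adgre1 was at 125 and 255 CPM. In the same class the 6 monocyte markers summed to 216 CPM in UBD and 570 CPM in control cells, the 6 neutrophil markers to 22.3 and 45.6 CPM and the 6 T or NK cell markers to 49.5 and 8.20 CPM. The part of these in the macrophage results was not tested. Of the tumour markers beside Cdkn2a, Krt18 was at 77.1 CPM in UBD and 12.1 CPM in control tumour cells, Krt8 at 39.2 and 10.3 CPM and Cd44 at 227 and 335 CPM. The monocyte label held less well in the UBD library: its 6 monocyte markers summed to 4987 CPM, against 9414 CPM in control cells, while 6 T or NK cell markers summed to 2449 CPM in UBD and 692 CPM in control monocyte-class cells. The UBD monocyte class thus holds Ly6c2-positive cells with T or NK cell transcripts, and the monocyte comparison is also given without the cells holding such UMIs. In the mature dendritic class 4 osteoclast markers summed to 3474.5 CPM in UBD and 16.8 CPM in control cells, and that comparison is also given without the cells holding their UMIs.

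Of the transport and arginase steps, Slc7a2 is the entry. Most of its UMIs lay in tumour cells (80.4% in the UBD and 88.9% in the control library), where its level was 9.68 CPM (9.20 to 10.2) in UBD and 13.3 CPM (12.7 to 14.0) in control cells. In macrophages Slc7a2 had 236 UMIs in 157 UBD cells and 33 UMIs in 28 control cells, or 23.6 CPM (20.7 to 26.8) against 4.75 CPM (3.27 to 6.67). UBD macrophages thus stood above UBD tumour cells for this transporter, whereas control macrophages stood below control tumour cells, and the macrophage level was 4.97-fold higher in UBD (3.45 to 7.40). With any C1qa UMI as the rule for a macrophage, the log2 ratio was 0.21 in place of 2.31, which ends the call. In the T or NK cell class, set by T and NK cell markers and not expected to hold much of the gene, Slc7a2 had 1 UMI in 361 UBD cells and 5 UMIs in 303 control cells. No Slc7a2 UMI was found in mature dendritic cells of either library, which allows up to 15.3 CPM in UBD and 8.41 CPM in control cells.

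Arg1 was the member with the clearest home in macrophages. It had 10187 UMIs in the UBD macrophages and 2355 in the control macrophages, levels of 1020 CPM (1000.2 to 1040) and 339 CPM (325 to 353). That is 3.01-fold higher in UBD (2.88 to 3.15). The share of macrophages with an Arg1 UMI was 59.0% (56.6 to 61.4) in UBD and 27.3% (25.1 to 29.6) in control cells, and after thinning every cell to 1000 UMIs it was 35.7% (33.3 to 38.0) and 16.5% (14.6 to 18.5). The difference was therefore present in the number of positive cells at equal depth as well as in the summed level. Median depth in the class was 5715 UMIs in UBD and 3982 UMIs in control cells. For comparison, an Arg1 UMI was found in 4.71% of UBD and 2.64% of control T or NK cells, lymphocytes that should lack the gene, at median depths of 2382 and 2709 UMIs.

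Few cells carried most Arg1. In UBD macrophages the cells with 10 to 29 Arg1 UMIs were 15.1% of the class with 40.8% of its Arg1 UMIs, and those with 30 or more were 4.72% with 36.3%. The highest single UBD macrophage held 117 Arg1 UMIs and the highest control macrophage 53. Macrophages held 70.6% of all Arg1 UMIs in the UBD library and 31.2% in the control library, while monocytes held 0.506% and 16.6%.

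In the other classes Arg1 was lower. The order by level in the UBD library was macrophage, then cells with both C1qa and Ly6c2 (432 CPM, 323 to 567), then neutrophil (106 CPM from 3 UMIs), monocyte (87.7 CPM, 68.7 to 110.3) and T or NK (64.1 CPM, 50.2 to 80.6), where the intervals of neighbours overlap from the neutrophil class down. In control cells the order was macrophage, C1qa and Ly6c2 (235 CPM, 217 to 255) and monocyte (178 CPM, 168 to 188), none of which overlap, then neutrophil (29.1 CPM from 6 UMIs). The UBD T or NK value is 73 UMIs of which 90.4% lay in 10 cells, and the UBD mature dendritic value (45.8 CPM) is 9 UMIs from 1 cell, so neither describes its class. Tumour cells had 4.78 CPM (4.45 to 5.13) in UBD and 5.28 CPM (4.90 to 5.69) in control cells, beside 14.9 and 24.3 CPM of the macrophage marker C1qa in the same cells. The highest single tumour cell held 41 Arg1 UMIs in UBD and 62 in control. In each library 10 cells held 26.6% and 33.3% of the Arg1 UMIs of the class, in that order. Whether the Arg1 UMIs of tumour cells are free RNA or come from mixed or misplaced cells was not tested.

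Arg2 was highest in neutrophils, with 246 CPM (99.0 to 507) from 7 UMIs in UBD and 339 CPM (264 to 428) from 70 UMIs in control cells. It was low elsewhere. Monocytes had 12.0 CPM (5.76 to 22.1) in UBD and 51.7 CPM (46.6 to 57.3) in control cells, and macrophages had 4.81 CPM (3.54 to 6.37) in UBD and 13.8 CPM (11.2 to 16.9) in control cells. Arg2 was thus 2.88-fold lower in UBD macrophages (2.01 to 4.16), opposite to Arg1 in the same class. Summed over all kept cells, Arg2 stood at 0.884 CPM in UBD and 6.55 CPM in control cells. In that sum, fewer cells of a type and less RNA per cell cannot be told apart.

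Nos2 split the libraries by class. In macrophages it had 269 UMIs in 126 UBD cells and 112 UMIs in 65 control cells, levels of 26.9 CPM (23.8 to 30.3) and 16.1 CPM (13.3 to 19.4), and was 1.67-fold higher in UBD (1.34 to 2.10). This rests on the threshold for C1qa: with any C1qa UMI counted as a macrophage, a set in which 62.9% of UBD and 55.1% of control cells also had a Cdkn2a UMI, the log2 ratio turned to -0.47 from 0.74. The share of macrophages with a Nos2 UMI after thinning was 2.36% (1.68 to 3.23) in UBD and 1.82% (1.19 to 2.65) in control cells, and these intervals overlap. No UBD T or NK cell held a Nos2 UMI, which allows up to 2.63 CPM. The control T or NK value of 7.71 CPM is 9 UMIs, 8 of them in 1 cell.

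In tumour cells the order of the libraries was the opposite. Nos2 had 133 UMIs in UBD and 998 UMIs in control tumour cells, 0.837 CPM (0.701 to 0.992) against 7.58 CPM (7.12 to 8.06), and was 9.06-fold lower in UBD (7.55 to 10.9). A Nos2 UMI was found in 0.840% of UBD (0.654 to 1.06) and 5.68% of control tumour cells (5.10 to 6.31), whose median depths were 16845 and 17643 UMIs. In consequence macrophages held 45.4% and tumour cells 22.5% of all Nos2 UMIs in the UBD library, against 6.70% and 59.7% in the control library. Fibroblasts had 21.5 CPM (13.8 to 32.0) in UBD and 100.3 CPM (80.4 to 124) in control cells, the highest control level among the marker classes, but 54 of the 88 control UMIs came from 1 cell. In monocytes there were 2 UMIs in UBD and 93 UMIs in control cells, a level 5.49-fold lower in UBD with an interval of 1.48 to 46.0. Without cells holding T or NK marker UMIs the monocyte ratio was 0.357 with an interval of 0.0425 to 1.33, which includes 1.

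Odc1 was present in every class, and 73.8% of UBD and 74.9% of control cells held an Odc1 UMI. Tumour cells had 81.1% of its UMIs in the UBD and 79.6% in the control library. Their level was 263 CPM (261 to 266) in UBD and 545 CPM (541 to 549) in control cells, 2.07-fold lower in UBD (2.04 to 2.09). Thinned to equal depth, 18.9% of UBD tumour cells (18.0 to 19.8) and 38.0% of control tumour cells (36.7 to 39.2) held an Odc1 UMI, so the difference was there in cells compared at the same number of UMIs. T or NK cells had the highest level by class, 852 CPM (799 to 907) in UBD and 960.0 CPM (905 to 1018) in control cells. Macrophages had 468 CPM (454 to 481) in UBD and 592 CPM (574 to 611) in control cells, a ratio of 0.789 (0.757 to 0.823) that did not reach 1.5-fold. Macrophages were above tumour cells in both libraries with no overlap of the intervals, and the gap was wider in the UBD library.

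Ass1 had its highest levels in mature dendritic cells and in cells with C1qa in the UBD library. In the control library they were in mature dendritic cells and in cells with Ly6c2. T or NK cells had 41.3 CPM (30.3 to 54.9) in UBD and 47.1 CPM (35.5 to 61.4) in control cells, intervals that overlap those of macrophages given below. In the UBD library mature dendritic cells had 61.0 CPM (31.5 to 107) from 12 UMIs, cells with both C1qa and Ly6c2 had 108 CPM (57.5 to 185) from 13 UMIs, an overlapping interval, and monocytes had 33.6 CPM (22.4 to 48.6). In the control library mature dendritic cells had the most, 229.9 CPM (183 to 285) from 82 UMIs, followed by monocytes at 105 CPM (97.9 to 113). Ass1 was 3.77-fold lower in UBD mature dendritic cells (2.04 to 7.58). Without cells holding osteoclast marker UMIs it had 7 UMIs at 50.7 CPM in 46 UBD cells and 80 UMIs at 239 CPM in 69 control cells, 4.71-fold lower (2.18 to 12.1). It was 3.13-fold lower in UBD monocytes (2.15 to 4.74). The lower monocyte level was also seen without cells holding T or NK marker UMIs, at 51.6 CPM in UBD and 125 CPM in control cells. With any Ly6c2 UMI as the rule, the log2 ratio in monocytes turned to 0.07 from -1.65. In macrophages Ass1 was at 57.5 CPM (52.9 to 62.4) in UBD and 54.3 CPM (48.9 to 60.025) in control cells, a ratio of 1.06 with an interval of 0.928 to 1.21.

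**Figure D1:**
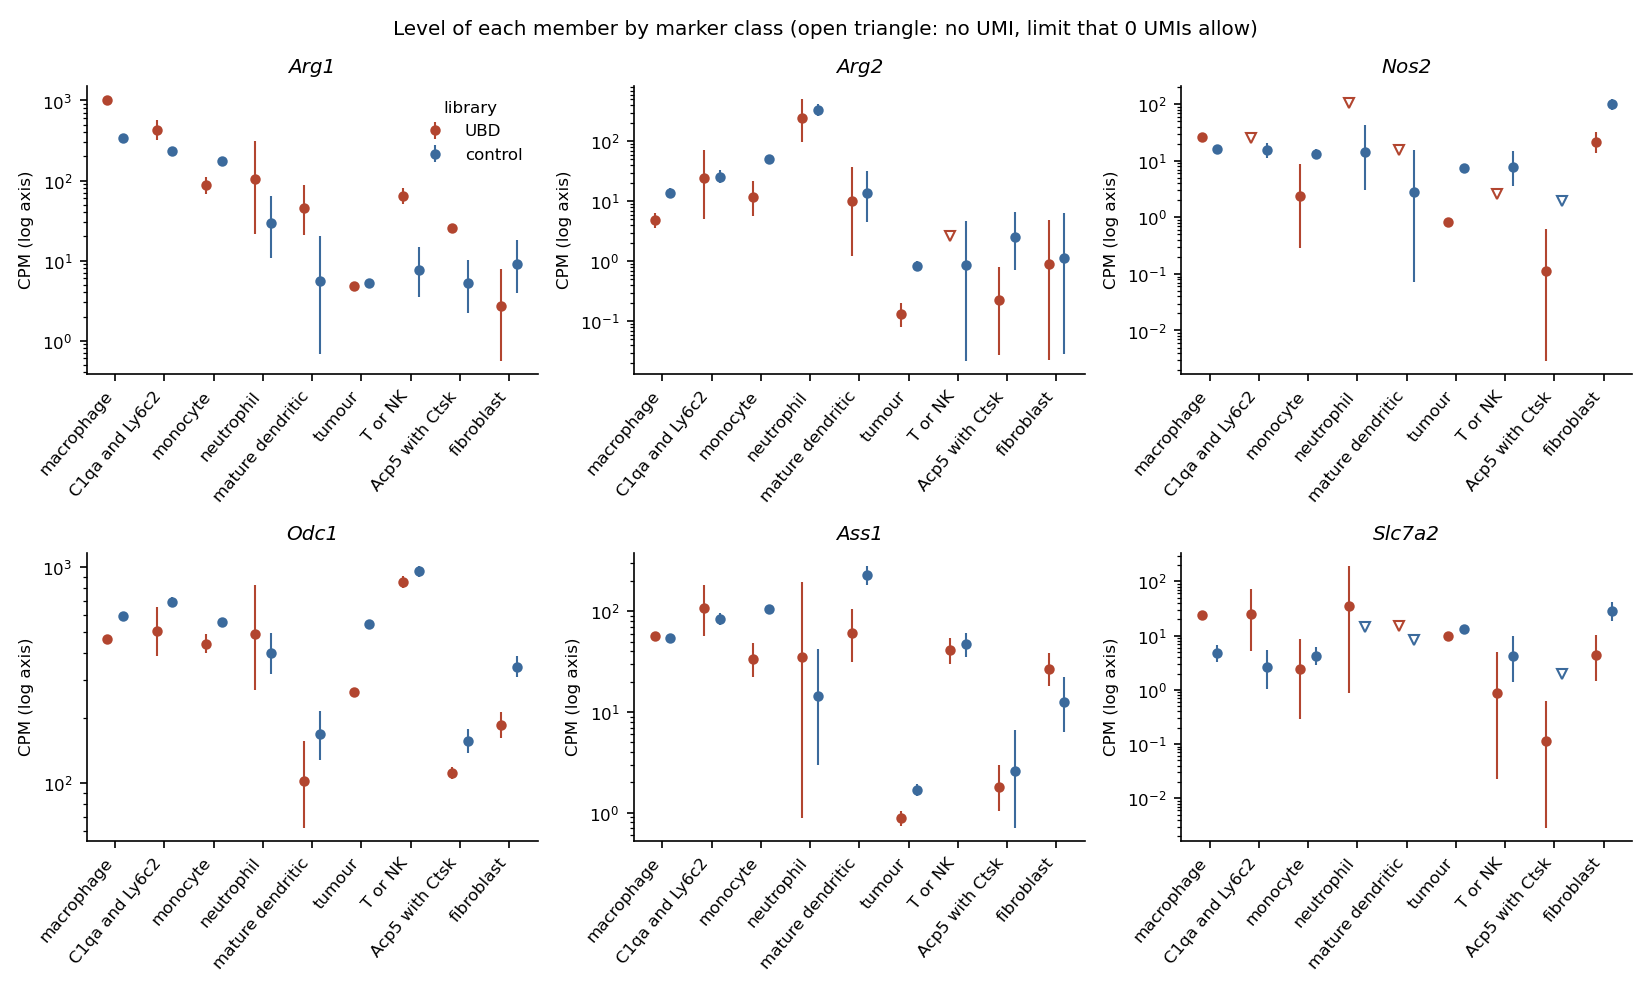
Level of each of the 6 genes (CPM, log axis) by marker class, UBD left of control in each pair, with exact Poisson 95% intervals and an open triangle at the limit where no UMI was found. Arg1 in macrophages stands at 1020 CPM in UBD and 339 CPM in control cells, while Nos2 in tumour cells stands at 0.837 CPM in UBD and 7.58 CPM in control cells.

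Counted by a fold of at least 1.5 among genes with at least 20 summed UMIs, 3 of the 6 members were higher and 1 was lower in UBD macrophages. Over all genes tested in that class, 9.36% were higher and 20.3% lower. The median log2 ratio was 0.41 for the members and -0.11 for all genes, so levels relative to the class median differ from those printed by that shift. In monocytes none of the 6 members was higher and 5 were lower, where 20.8% of all genes were higher and 23.8% lower; for Slc7a2, with 2 UMIs in UBD and 30 in control cells, the interval includes 1. Arg1 was among the 5, 2.03-fold lower (1.60 to 2.60). Without cells holding T or NK marker UMIs, 113 UBD and 1801 control monocytes remained, in which 4 of the 6 members were lower and none was higher, where 18.5% of all genes were higher and 28.4% lower. Arg1 was then at 189 CPM in UBD and 218 CPM in control cells, a ratio of 0.867 (0.667 to 1.11) that no longer reaches the fold, and Slc7a2 had a ratio of 1.13 (0.131 to 4.47) from 2 UBD UMIs. Odc1 reached it only then, at 255 and 559 CPM (2.19-fold lower), and Arg2 was at 25.8 and 63.0 CPM, 2.44-fold lower where it was 4.31-fold lower with all cells. With any Ly6c2 UMI as the rule the Arg1 log2 ratio in monocytes was 0.99, against -1.02 as reported.

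Among mature dendritic cells only Ass1 and Odc1 had enough UMIs, and both were lower in UBD, where 13.5% of all genes were higher and 21.3% lower. Odc1 had 20 UMIs in UBD and 60 in control cells there, and its 1.65-fold lower level has an interval of 0.982 to 2.90. Both were also lower without cells holding osteoclast marker UMIs, where 11.8% of all genes were higher and 23.8% lower, Odc1 by 1.57-fold (0.875 to 2.98). Cells of the class set by Acp5 with Ctsk had little of either gene in UBD, with Odc1 at 112 CPM and Ass1 at 1.81 CPM. In tumour cells 4 of the 6 members were lower in UBD and none was higher, where 8.85% of all genes were higher and 21.6% lower. These 4 were Nos2, Odc1, Arg2 (6.32-fold, 3.94 to 10.6) and Ass1 (1.91-fold, 1.54 to 2.38), with a median log2 ratio of -0.99 over the members and -0.06 over all genes. Slc7a2 was 1.38-fold lower and Arg1 had a ratio of 0.905 (0.815 to 1.00). The members thus did not differ between the libraries as a block: in macrophages Arg1, Nos2 and Slc7a2 were higher in UBD and Arg2 lower, and in tumour cells no member was higher.

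**Figure D2:**
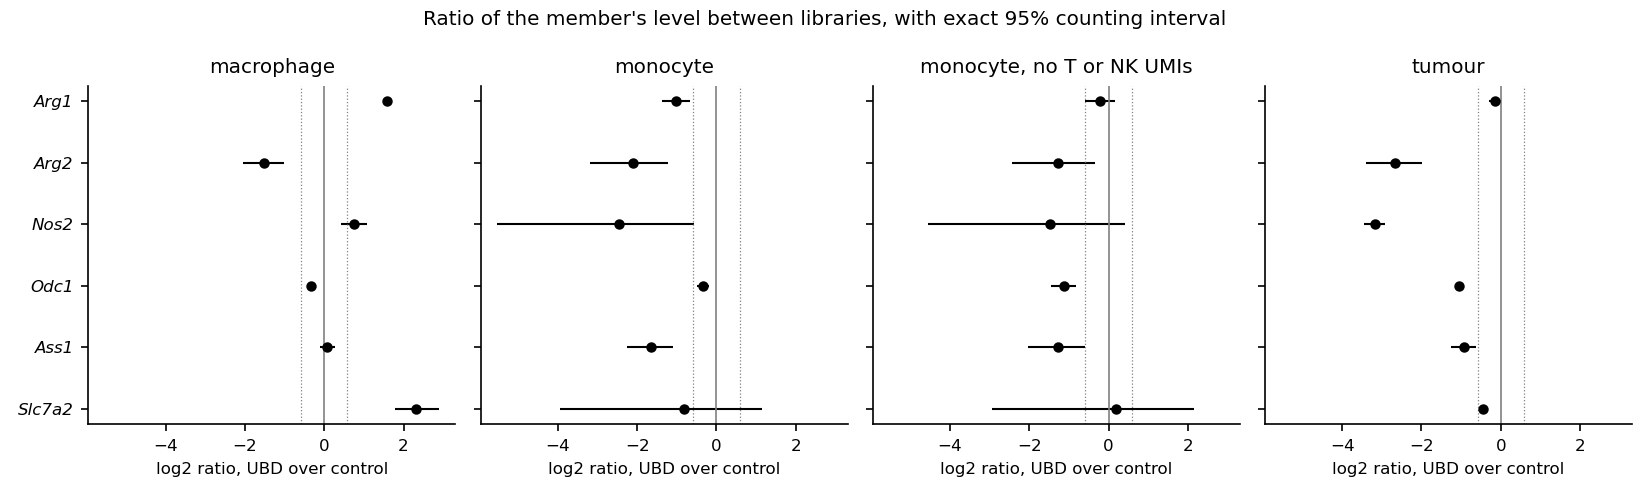
Log2 ratio of each gene's level, UBD over control, in 4 sets of cells, with exact 95% counting intervals and dotted lines at 1.5-fold. Arg1, Nos2 and Slc7a2 lie right of the upper line in macrophages, and Nos2, Odc1, Arg2 and Ass1 lie left of the lower line in tumour cells.

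Arg1 and Nos2, which use the same substrate, were found in the same macrophages more often than the product of their single shares. After thinning, 26 of 1610 UBD macrophages held both (1.61%, 1.06 to 2.36), where the product of the shares is 0.841%, and 13 of 1429 control macrophages did (0.910%, 0.485 to 1.55), where it is 0.300%. Among UBD macrophages with a Nos2 UMI 68.4% (51.3 to 82.5) also had Arg1, against 34.9% of those without Nos2. Among control macrophages the shares were 50% (29.9 to 70.1) and 15.9%. The difference between the libraries in the share with both was 0.705 percentage points (-0.114 to 1.54), an interval that includes 0. Without thinning, 107 of 1651 UBD macrophages (6.48%) and 47 of 1537 control macrophages (3.06%) held both, and the difference was 3.42 points (1.95 to 4.92). UBD macrophages were also deeper, as given above, and the part of depth in the unthinned difference was not tested.

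The relation was graded. Among UBD macrophages a Nos2 UMI was found in 2.81% of cells with no Arg1 UMI, 4.33% with 1 to 2, 8.67% with 3 to 9, 18.4% with 10 to 29 and 21.8% with 30 or more. Among control macrophages these shares were 1.61%, 3.96%, 14.0%, 26.2% and 28.6%, the last of only 7 cells. Cell depth moved with the bins: the median was 4925 UMIs in the lowest and 8762 UMIs in the highest UBD bin, and 3726 and 7656 UMIs in the control bins. Its part in the gradient was not tested, and the thinned shares given above do not cover these bins. Thinned to 500 UMIs, 44.8% of UBD macrophages with Nos2 (26.4 to 64.3) and 24.9% of those without (22.8 to 27.1) had Arg1, and these intervals overlap. In control cells the shares were 35.7% (12.8 to 64.9) and 9.72% (8.28 to 11.3).

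**Figure D3:**
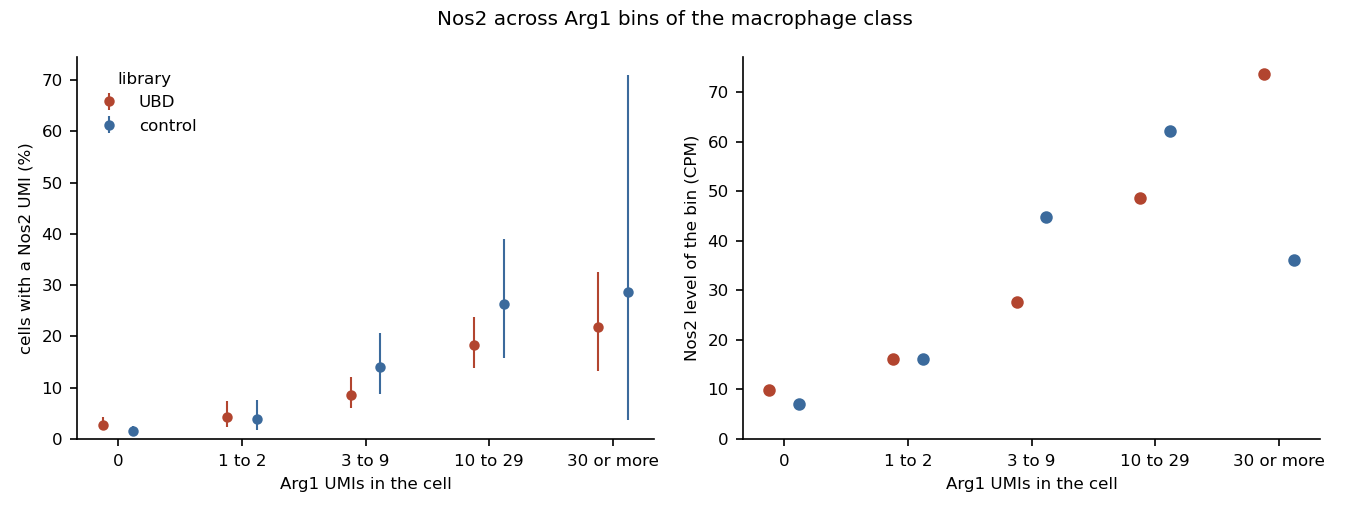
Share of macrophages with a Nos2 UMI (left, percent, exact binomial 95% intervals) and Nos2 level (right, CPM) in bins of Arg1 UMIs per cell, UBD left of control in each pair. The share runs from 2.81% to 21.8% across the UBD bins and from 1.61% to 28.6% across the control bins.

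Co-detection was not seen in every class. After thinning, none of 253 UBD monocytes held Nos2, so none could hold both. Of 2053 control monocytes 6 held both (0.292%), where the product of the shares is 0.109%. Without thinning, 1 of 256 UBD (0.391%) and 30 of 2120 control monocytes (1.42%) held both, where the products are 0.0793% and 0.449%. Only 113 UBD and 1801 control monocytes lacked T or NK marker UMIs, and co-detection in these alone is not given. In the class with both C1qa and Ly6c2, 14 of 659 control cells (2.12%) held both without thinning, where the product is 0.957%. After thinning 1 of 649 did, and none of 24 UBD cells did either way. Of the tumour cells, 11 of 8218 in UBD (0.134%) and 27 of 5753 in control (0.469%) held both without thinning. The products of the shares are 0.0422% and 0.303%. After thinning 1 tumour cell held both in each library. The part of cell depth in the unthinned shares was not tested. Among the cells that met no class, 17 in UBD (1.36%) and 35 in control (1.69%) held both after thinning, where the products of the shares are 0.316% and 0.318%.

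The other members differed in how they went with Arg1. Macrophages with at least 3 Arg1 UMIs after thinning (223 in UBD, 60 in control) were set against those with none (1036 and 1193), with median depths of 6302 and 5639.5 UMIs in UBD and 4637.5 and 4196 UMIs in control cells. Nos2 was at 63.9 CPM with Arg1 and 14.3 CPM without it in UBD, and at 67.6 and 10.9 CPM in control cells. Slc7a2 was at 62.6 and 14.7 CPM in UBD and at 16.9 and 3.68 CPM in control cells, the control value with Arg1 from 5 UMIs. Arg2 was at 8.47 and 3.83 CPM in UBD and at 57.4 and 9.46 CPM in control cells. Odc1 was at 465 CPM with and 466 CPM without Arg1 in UBD, and at 699 and 558 CPM in control cells. Ass1 was at 50.8 and 59.0 CPM in UBD and at 50.7 and 56.0 CPM in control cells. Thus the other arginase, the synthase and the transporter were higher in Arg1 cells of both libraries, and the 2 enzymes of ornithine and citrulline use were within 1.5-fold. The Arg1 cells summed to 1534035 UMIs in UBD and 296051 UMIs in control cells. Arg2 in both libraries, and Nos2 in control cells, therefore also rest on few UMIs there.

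Genes of the HIF and glycolysis list, which cells raise at low oxygen, were higher in Arg1 macrophages. Of those with a mean of at least 50 CPM over both sides, 15 of 16 in UBD and 14 of 15 in control cells were at least 1.5-fold higher, where 6.12% and 12.4% of all genes were. A mean can pass through the Arg1 side alone; of the genes at 50 CPM or more in the cells without Arg1 as well, 14 of 15 in UBD and 13 of 14 in control cells were higher. Their median log2 ratio was 0.99 in UBD and 1.42 in control cells, against -0.09 and -0.05 over all genes. Bnip3, a mitochondrial protein of mitophagy induced by HIF, was at 315 CPM with and 77.2 CPM without Arg1 in UBD, and at 311 and 53.1 CPM in control cells. Of the lipid and repair genes at that level in the cells without Arg1, 6 of 8 in UBD and 5 of 8 in control cells were higher, among them Ctsl, a lysosomal protease (4010 with and 1035 CPM without Arg1 in UBD, 3780 and 1142 CPM in control cells), and Hmox1, which breaks down heme (499 and 183 CPM, 1584 and 326 CPM). Of the same list Apoe was at 10223 and 9882 CPM in UBD and was lower in control cells, at 6668 and 11123 CPM.

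Interferon genes stood the other way. None of 7 interferon gamma genes was higher in Arg1 macrophages and 3 were lower in each library, where 7.83% of all genes were lower in UBD and 13.6% in control cells. Cxcl9, a chemokine that draws T cells and is induced by interferon gamma, was at 288 CPM with and 938 CPM without Arg1 in UBD, and at 37.2 and 246 CPM in control cells. Of the type I interferon list no gene reached a mean of 50 CPM in UBD cells, so it could not be compared there. In control cells all 10 of its genes tested were lower, with a median log2 ratio of -1.17, and so were the 7 of them at 50 CPM or more in the Arg1 cells. Of the interferon gamma genes 2 of 6 at that level were lower in each library. Among the genes with the largest differences in the same direction in both libraries, some of which reach the level minimum in the Arg1 cells alone, were the elastase Mmp12 (224 with and 21.0 CPM without Arg1 in UBD, 311 and 12.6 CPM in control cells), the chemokine Cxcl3 (125 with and 17.7 CPM without Arg1 in UBD, 689 and 46.9 CPM in control cells), the receptor Tnfrsf9 (103 and 22.2 CPM, 189 and 15.8 CPM) and the metalloproteinase Adam8 (293 and 72.1 CPM, 611 and 145 CPM). Tmem176b, a membrane protein of myeloid cells, was lower, at 78.2 CPM with and 344 CPM without Arg1 in UBD and at 3.38 and 195 CPM in control cells.

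Macrophages with a Nos2 UMI (126 in UBD, 65 in control) went with the same list against those without (1525 and 1472). Median depths were 6226 UMIs with and 5678 UMIs without Nos2 in UBD, and 4946 and 3939 UMIs in control cells. The part of depth in the values below was not tested. Of the HIF and glycolysis genes 14 of 16 in UBD and 15 of 15 in control cells were higher, where 6.09% and 8.7% of all genes were, with medians of 0.74 and 1.06. Beside the same shares, 6 of 9 lipid and repair genes in UBD and 5 of 9 in control cells were higher. Of the interferon gamma genes 1 of 7 in UBD and 2 of 9 in control cells were higher. None of these was lower in UBD and 1 was in control cells, where 4.91% and 8.05% of all genes were lower. Arg1 was at 2293 CPM with and 907 CPM without Nos2 in UBD, and at 1409 and 277 CPM in control cells. Saa3, an acute phase protein, was at 301 and 35.6 CPM in UBD and at 143 and 24.8 CPM in control cells. It reached the level minimum in the cells with Nos2 alone. Ero1l, a disulfide-forming oxidase of the endoplasmic reticulum, was at 306 and 82.8 CPM in UBD and at 309.8 and 67.0 CPM in control cells.

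Collagen transcripts moved with Nos2 in the control library: Col1a1 was at 27.0 CPM in UBD macrophages with Nos2 and 45.8 CPM in those without, and at 1610 and 82.3 CPM in control cells. Among cells with no collagen UMI (84 with Nos2 in UBD and 44 in control) 14 of 16 HIF and glycolysis genes in UBD and 15 of 16 in control cells were again higher, where 6.63% and 11.5% of all genes were. Of those at 50 CPM or more in the cells without Nos2, 14 of 16 in UBD and 13 of 14 in control cells were. Median depths in this set were 5789 UMIs with and 5458 UMIs without Nos2 in UBD, and 4901.5 and 3955 UMIs in control cells.

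Tumour cells with a Nos2 UMI (69 in UBD, 327 in control) showed the same list against those without (8149 and 5426). Of the HIF and glycolysis genes 16 of 18 in UBD and 17 of 19 in control cells were higher, where 4.62% and 5.32% of all genes were, with medians of 0.93 and 1.15. At 50 CPM or more in the cells without Nos2 as well, 14 of 16 were higher in each library. Slc2a1, the glucose transporter GLUT1, was at 225 CPM with and 67.5 CPM without Nos2 in UBD, and at 339 and 101 CPM in control cells. The keratinocyte envelope gene Sprr2e was at 111 and 5.27 CPM in UBD and at 196 and 18.3 CPM in control cells. Lcn2, an iron-binding protein of inflamed epithelium, was at 118 and 7.80 CPM in UBD and at 203 and 49.4 CPM in control cells. Sprr2e and Lcn2 reached the level minimum in the cells with Nos2 alone. Odc1 was at 285 and 263 CPM in UBD, but at 346 and 563 CPM in control cells, where tumour cells with Nos2 had less of it. Tumour cells with Nos2 were deeper than those without, at medians of 19876 and 16826 UMIs in UBD and of 30661 and 16727 UMIs in control cells. The part of depth in these values was not tested.

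**Figure D4:**
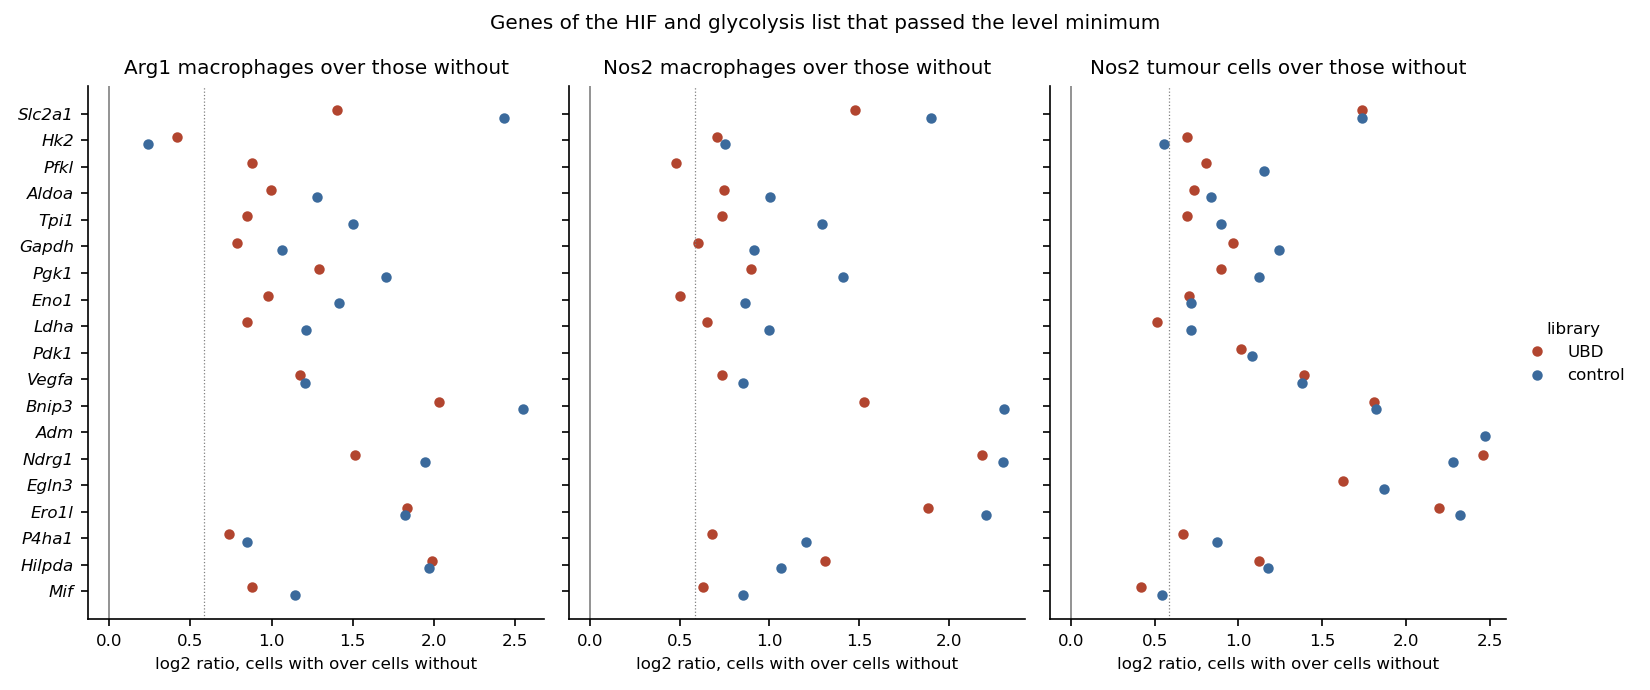
Log2 ratio for genes of the HIF and glycolysis list that passed 50 CPM, cells with over cells without Arg1 or Nos2, in UBD (red) and control (blue); the dotted line is 1.5-fold. In Arg1 macrophages 15 of 16 genes in UBD and 14 of 15 in control lie past it, and in Nos2 tumour cells 16 of 18 and 17 of 19.

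Within macrophages, Arg1 was higher in cells with the mannose receptor Mrc1 (1407 with and 894 CPM without in UBD, 587 and 277 CPM in control), with Spp1 (1282 and 612 CPM, 392 and 311 CPM) and with Vegfa, the vascular growth factor (1519 and 941 CPM, 771 and 278 CPM). It was lower in cells with the MHC class II gene H2-Ab1 (821 and 1255 CPM in UBD, 173 and 415 CPM in control), with Cxcl9 (513 and 1215 CPM, 104 and 369 CPM) and with the cycling gene Mki67 (434 and 1076 CPM, 249 and 345 CPM). Lyve1, a receptor of resident macrophages, marked low Arg1 in UBD (282 and 1043 CPM), and no Arg1 UMI was found in 11 control cells with Lyve1, which allows up to 61.9 CPM. For each of these markers the cells with and without it stood in the same order in both libraries. UBD exceeded control in every subset other than the Lyve1 one, where no fold can be given, by 1.74-fold in Mki67 cells up to 4.95-fold in Cxcl9 cells. The higher Arg1 of UBD macrophages was therefore seen with and without a UMI of each marker, other than in the cells with Lyve1. A cell with no UMI of a marker can still express it. The sets without a UMI therefore cannot show whether the difference also lies outside the cells expressing a marker.

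For Nos2 the same subsets gave ratios of UBD over control of 1.07 in Vegfa cells up to 2.99 in Isg15 cells, with Mki67 cells apart at 0.285 from 7 UBD and 8 control UMIs. Slc7a2 followed Arg1 in UBD macrophages for some markers only: it was at 30.2 CPM with and 11.7 CPM without Spp1 and at 43.5 and 19.6 CPM with and without Vegfa. It went against Arg1 for H2-Ab1, at 28.8 CPM with and 16.2 CPM without it, and was at 22.0 and 23.4 CPM with and without Cxcl9.

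In tumour cells Odc1 was lower in UBD in each subset, by 1.35-fold in cells with Serpinb2 up to 2.36-fold in cells with H19. Cells with the keratin Krt18 had the most in both libraries, 346 CPM with and 259 CPM without in UBD and 650.3 and 544 CPM in control cells. Cells with Serpinb2 had 291 CPM and those without it 263 CPM in UBD, but in control cells the ones with Serpinb2 had less, 393 and 550.4 CPM. Cells with and without Mki67 had 281 and 263 CPM in UBD and 534 and 545 CPM in control cells. Nos2 was uneven: it was at 1.92 CPM with and 0.719 CPM without Vegfa in UBD and at 20.1 and 5.85 CPM in control tumour cells. The 16 UBD tumour cells with Serpinb2 held no Nos2 UMI, which allows up to 8.46 CPM, while control tumour cells had 38.4 CPM of Nos2 with Serpinb2 and 6.45 CPM without it. In each subset with a UBD Nos2 UMI the level was lower in UBD, by 7.69-fold in cells without Serpinb2 up to 42.1-fold in Mki67 cells, the last from 1 UBD and 48 control UMIs.

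**Figure D5:**
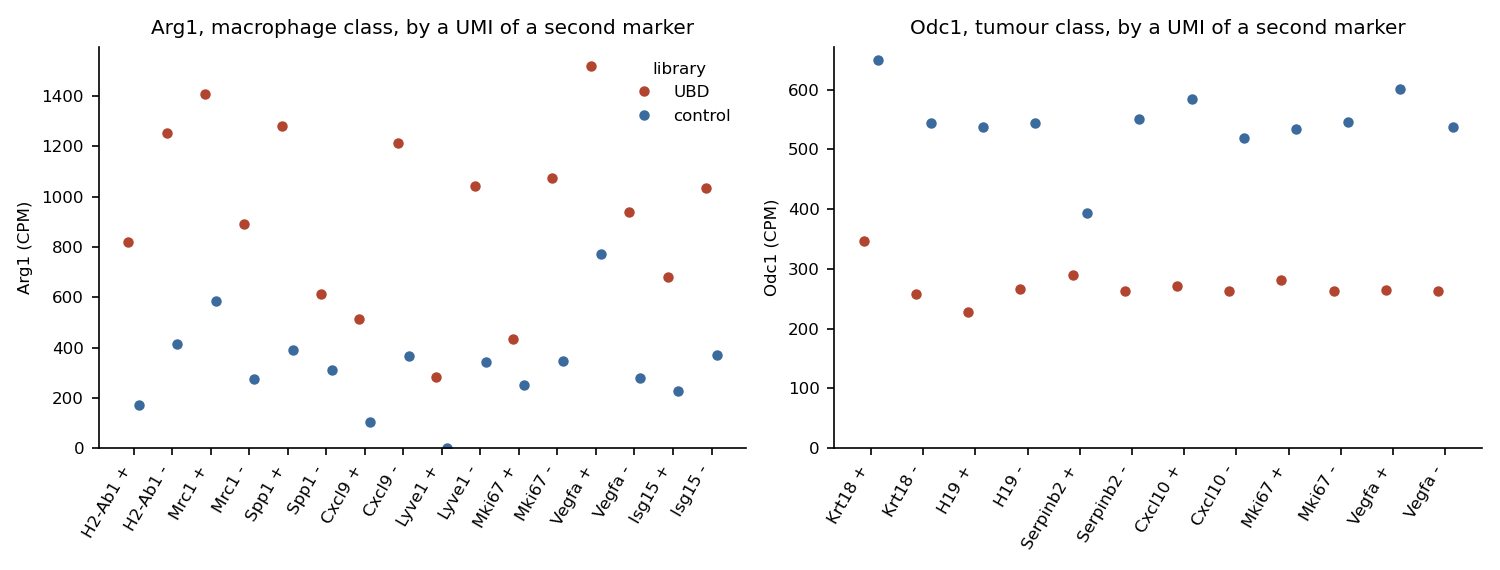
Level (CPM) of Arg1 in macrophages (left) and of Odc1 in tumour cells (right) in cells with (+) and without (-) a UMI of a second marker, UBD left of control in each pair. UBD lies above control for Arg1, by 1.74-fold or more where both have UMIs, and below control for Odc1, by 1.35-fold or more.

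Around the 6 genes, the wider pathway lists in macrophages are read beside the shares of all genes given above, 9.36% higher and 20.3% lower. Of 8 transport and supply genes none was higher in UBD and 1 was lower: Slc3a2, the heavy chain shared by several amino acid transporters, at 188 CPM in UBD and 352 CPM in control cells. Of 8 genes for other fates of ornithine and arginine 3 were higher, led by Gatm, which uses arginine for creatine (209 and 102 CPM). Of 15 polyamine genes none was higher and 1 was lower: Azin1, which frees ornithine decarboxylase from its antizyme (51.3 and 134 CPM). The antizyme Oaz1 (963 and 851 CPM), the spermidine acetylase Sat1 (368 and 518 CPM) and Eif5a, the protein that carries the spermidine-derived hypusine (728 and 545 CPM), did not reach 1.5-fold.

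Of 9 nitric oxide genes in macrophages none was higher and 3 were lower, where 9.36% of all genes were higher and 20.3% lower. Among the 3 was Gch1, which starts the synthesis of the cofactor of nitric oxide synthases (48.8 CPM in UBD and 77.1 CPM in control cells). Summed over the class, Nos2 was thus higher and Gch1 lower in UBD macrophages. A Nos2 UMI was found in 7.63% of these cells, so the sums do not show both in the same cells. The Nos2 difference rests on the threshold for C1qa, as given above. Of 15 regulators 2 were lower, a share under that of all genes, including Irf1, an interferon-induced factor that acts on Nos2 (64.3 and 158 CPM). Cebpb (1042 and 1286 CPM), Hif1a (266 and 204 CPM) and Il4ra (189 and 251 CPM), which all bear on Arg1, did not reach the fold.

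In tumour cells 2 of 15 polyamine genes were higher in UBD and 1 was lower, where 8.85% of all genes were higher and 21.6% lower. The oxidases Paox (8.52 CPM in UBD and 1.496 CPM in control cells) and Smox (25.1 and 15.6 CPM), which break polyamines down, were higher, and Azin1 was lower (66.1 and 102 CPM). The synthases Srm (187 and 259 CPM) and Sms (144 and 161 CPM) and the antizyme Oaz1 (614 and 607 CPM) did not reach the fold, unlike Odc1. Of 14 nitric oxide genes 4 were higher and 4 lower. Ddah2, which clears an inhibitor of nitric oxide synthases, was higher (147 and 93.0 CPM), and Ddah1 of the same family (21.7 and 37.8 CPM) and Gch1 (63.2 and 95.2 CPM) were lower. Nos1, the neuronal synthase, had 246 UMIs in UBD and 2 UMIs in control tumour cells, a ratio of 102 with an interval of 27.9 to 846, at no more than 1.55 CPM. Pycr1, which makes proline, was at 28.9 and 14.9 CPM. Of 15 regulators 1 was higher and 5 were lower, among them Nfkb1 (46.8 and 115 CPM), Klf4 (120.2 and 203 CPM) and Il4ra (8.40 and 18.3 CPM).

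In monocytes, where 20.8% of all genes were higher and 23.8% lower, 1 of 15 regulators was higher and 9 were lower in UBD. Without cells holding T or NK marker UMIs 1 was higher and 5 were lower, where 18.5% of all genes were higher and 28.4% lower. With all cells Cebpb was at 1366 CPM in UBD and 2584 CPM in control cells and Klf4 at 185 and 356 CPM. Of 14 polyamine genes 3 were higher and 3 lower, near those shares, with Smox at 68.5 and 248 CPM. Of 8 nitric oxide genes 2 were higher and 3 lower, with Gch1 at 69.7 and 149 CPM. Without cells holding T or NK marker UMIs 2 polyamine genes were higher and 3 lower, and 1 nitric oxide gene was higher and 1 lower. The levels of Cebpb, Klf4, Smox and Gch1 are for all cells of the class. The part of the cells with T or NK cell transcripts in these levels was not tested. Of 12 regulators tested in mature dendritic cells 6 were lower and none was higher, where 13.5% of all genes were higher and 21.3% lower. Without cells holding osteoclast marker UMIs 6 of 12 were lower and 1 was higher, where 11.8% of all genes were higher and 23.8% lower.

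Across 16 sums of a class in a library, Arg1 was most like Mrc1 (Pearson r = 0.94), Fcgr2b and Msr1 on the log2(CPM + 1) scale, Arg2 most like Mcl1 (0.94), Lilra6 and Clec4e, and Nos2 most like Sgk1 (0.90), Nr4a1 and Ski. Odc1 was most like Hmgn2 (0.90) and Ass1 most like Sp110 (0.93). The points share their library and its depth, and the values are a description of these sums.

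On the GRCm38 assembly Arg1 lies on chromosome 10 at 24915221 to 24927484 (minus strand), Nos2 on chromosome 11 at 78920787 to 78960254 (plus strand) and Ass1 on chromosome 2 at 31470207 to 31520672 (plus strand). Arg2 (79130777 to 79156301, plus strand) and Odc1 (17544794 to 17551505, plus strand) both lie on chromosome 12, far apart. Slc7a2 lies on chromosome 8 at 40862396 to 40922308 (plus strand). The members are thus separate single genes and not a cluster.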

How the data were processed

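The authors deposited UMI counts per gene and barcode, 1 sparse matrix for each library, from Chromium 3' v3 libraries per the labels' protocols. Cell Ranger, STAR and mm10 are named in the submitters' processing notes, and the file headers give software version 3.1.0; the aligner settings and cell-calling rule are stated in none of these sources. Filters of 200 genes and 500 UMIs or more, with mitochondrial UMIs of 20% or less, kept these barcodes: 13619 of 14158 in UBD and 14353 of 14890 in control. Scrublet (scanpy 1.11.5, expected rate 0.1) marked 562 (4.13%) and 530.0 (3.69%) of these as doublets, which were removed, leaving 190086511 and 164694644 UMIs. Cells meeting more than 1 class (145 and 515) were left out, except those with C1qa and Ly6c2; cells meeting none form the rest.

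Class sums have exact Poisson intervals, ratios exact conditional binomial intervals, shares Clopper-Pearson intervals and differences of shares Newcombe-Wilson intervals, all at 95% and for counting error only. A count of 0 is given as the limit of 3 counts. Thinning drew 1000 UMIs per cell and left out shallower cells (41 of the UBD and 108 of the control macrophages). Genes were called at 1.5-fold. Comparisons of cells with and without a gene used genes of at least 50 CPM, and named the 5 genes with the largest and the 5 with the smallest ratio that went the same way in both libraries, of which a part is given. From the lists, genes with the most UMIs past the fold or at least 100 CPM were named. Nos1, Paox, Pycr1 and the interferon and lipid genes given as examples were chosen after their values were seen. For Nos2 the thinned rule of at least 3 UMIs left 4 UBD and 0 control macrophages, so any Nos2 UMI was used instead. The genes most like Slc7a2 are not reported here. The class rules were set in this work; the members and lists were chosen with earlier results of these data known. The ratio computation was tested on simulated data. Python 3.11.15, numpy 2.4.6, scipy 1.17.1 and pandas 2.3.3 were used.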

Additional observations from a re-analysis of the deposited data

Results flagged for a closer look

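Arg1 and Nos2 were each higher in UBD macrophages but lower in UBD monocytes, and Nos2 was also lower in UBD tumour cells. The log2 ratio of UBD over control for Arg1 was 2.61 larger in macrophages than in monocytes. For Nos2 it was 3.20 larger in macrophages than in monocytes and 3.92 larger in macrophages than in tumour cells. With 1 library per group none of these differences was tested. The monocyte side of the Arg1 difference depends on cells with T or NK marker UMIs: without them the log2 ratio was -0.21, against -1.02 with them. The monocyte side for Nos2 rests on 2 UMIs in the UBD library.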

How the results depend on the processing

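No paired analysis was possible because each group has 1 library. The log2 ratio of Arg1 in macrophages (1.59) was 1.52 with any C1qa UMI as the rule, 1.71 with cells of several classes kept in each, 1.68 with doubled thresholds, 1.51 with cells weighted equally and 1.70 with median-ratio scaling. That of Nos2 in macrophages (0.74) turned to -0.47 with any C1qa UMI and stayed between 0.71 and 0.91 otherwise. That of Odc1 in tumour cells (-1.05) was -1.27 with cells weighted equally, -0.99 with median-ratio scaling and -1.02 with a stricter cell filter. The difference in the share of macrophages with both Arg1 and Nos2 (0.705 points) was 3.42 without thinning and 2.13 without thinning at 2 UMIs or more of each gene. Thinned to 500 UMIs it was 0.462 points (-0.0811 to 1.05), an interval that includes 0. The interval of this difference excluded 0 with cells of several classes kept in each (0.836 points, 0.207 to 1.56) and with doubled thresholds (0.967 points, 0.212 to 1.77). With any marker UMI, Arg1 in monocytes turned to 0.99 from -1.02 and Ass1 in monocytes to 0.070 from -1.65, and Slc7a2 in macrophages was 0.21 against 2.31. Of 144 alternatives over 17 further results, 123 moved within counting error, 19 moved further and 2 reversed. The cause was not tested. Leaving out the barcodes found in both libraries, and the sets without T or NK, osteoclast or collagen UMIs, were added after seeing the data. At 1000 UMIs per cell few macrophages hold Nos2, Arg2 or Slc7a2. Nothing here separates the UBD group from its single library.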

Other observations

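Cells that met no class held 17.1% of the Arg1 UMIs of the UBD library and 29.3% of those of the control library. Their cells with at least 2 Arg1 UMIs, without thinning (246 in UBD, 242 in control) had Nos2 at 77.6 CPM, against 7.38 CPM in those without Arg1, in UBD, and at 144 and 16.8 CPM in control. The macrophage growth factor receptor Csf1r was at 198 and 91.4 CPM in UBD and at 179 and 57.2 CPM in control. The chemokine Cxcl2 was at 7611 and 931 CPM in UBD and at 18262 and 2403.5 CPM in control, and Clec4d, a lectin receptor of myeloid cells, at 267 and 33.4 CPM in UBD and at 1133 and 130.0 CPM in control. Of 16 HIF and glycolysis genes tested, 5 were higher and 1 was lower in UBD, where 12.3% of all genes were higher and 9.21% lower. In control 10 of 16 were higher and none was lower, where 23.4% of all genes were higher and 20.3% lower. Ndrg1, a HIF-induced gene of this list, was at 135 and 213 CPM in UBD and at 374 and 337 CPM in control. Median depths were 3900 UMIs with and 2488 UMIs without Arg1 in UBD, and 3347.5 and 2026 UMIs in control. The part of depth in these values was not tested.

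Nos2 in fibroblasts came from 6 UBD and 9 control cells. These had Apln, the ligand apelin, at 341 CPM, against 17.6 CPM in the fibroblasts without Nos2, in UBD, and at 137 and 8.55 CPM in control. These cells also hold Serpinb2 at 309.8 and 13.7 CPM in UBD and at 1240.5 and 61.3 CPM in control. Apln in both libraries and Serpinb2 in UBD reached the level minimum in the cells with Nos2 alone. Median depths were 13862 UMIs with and 7589 UMIs without Nos2 in UBD, and 18799 and 4956.5 UMIs in control. Whether the cells with Nos2 are fibroblasts was not tested, nor was the part of depth in these values.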
